A study of Mus musculus with 10 samples.

Results

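The locus of Pou5f1, the gene of the transcription factor OCT4, was described in peak lists of SOX15 and SOX2 from mouse embryonic stem cells. Every peak with its summit within 50 kb of the gene body was taken, and 9 of the 8819 peaks in 5 lists met this rule. Pou5f1 is 1 of 21627 protein-coding genes in the RefSeq table used. It lies on the plus strand of chromosome 17, at 35506032 to 35510777 (mm10), and its start is the reference point of all distances given here. The study had 10 samples: 3 SOX15 and 2 SOX2 ChIP libraries, and 5 input libraries, whose values were not analysed here. The ChIP libraries came from cells with an HA tag on SOX15 or on SOX2, added at the factor's own gene, and all cells were grown in 2i/LIF. No untagged group was analysed here, and the labels do not say how many clones were used or whether replicates were separate cultures. The lists hold no expression values, so the labelled cell type could not be checked against markers.

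OCT4 holds cells in the pluripotent state together with SOX2, and the pair binds DNA side by side on composite OCT-SOX elements. Transcription of Pou5f1 is known to be driven by a distal enhancer, the more active in naive cells, and a proximal enhancer, the more active in primed cells, both upstream of the gene. The distal enhancer holds such an element, so Pou5f1 is a target of its own product. SOX15 is a related HMG-box factor of embryonic stem cells. Windows for the enhancers were set at 1.5 to 2.5 kb (distal, textbook centre about 2 kb) and 0.8 to 1.5 kb (proximal, textbook centre about 1.2 kb) upstream of the start. The files annotate no enhancer.

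The 250 bases before the start are shown because no library had a peak on them, while sites further upstream did. They run from chr17:35505782-35506031 on the plus strand (RefSeq, GRCm38.p6, which shares coordinates with mm10). Capitals mark matches to GGGCGG, the GC box, and to AGGTCA, a half-site of nuclear receptors.
Pou5f1 promoter: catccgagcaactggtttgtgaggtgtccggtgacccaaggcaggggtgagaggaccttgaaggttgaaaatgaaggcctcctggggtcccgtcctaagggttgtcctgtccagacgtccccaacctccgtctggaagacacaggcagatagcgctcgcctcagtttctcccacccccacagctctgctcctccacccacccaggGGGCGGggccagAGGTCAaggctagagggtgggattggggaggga
Each of these motifs matched once, and they did not overlap. The GC box began 45 bases before the start and the half-site 33 bases before it. On either strand, GGGCGG was present in 32.7% and AGGTCA in 14.0% of the 32851 windows of this length in the table. The SOX cores CATTGT and CTTTGT and the octamer ATGCAAAT, the site of POU factors, had no match in this window, and were present in 10.7%, 16.5% and 1.6% of all windows. GC content was 62.0%, against a median of 52.4% over all windows. The sequences under the peaks themselves were not used here.

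The distal enhancer window held the strongest peak of the locus, and it was called in SOX15 replicate 3 and in SOX2 replicates 1 and 2. SOX15 replicate 3 had a fold enrichment of 11.8 there, with a −log10 q-value of 18.2. The fold was 30.0 in SOX2 replicate 1 and 47.0 in SOX2 replicate 2, with −log10 q-values of 132 and 208. SOX15 replicates 1 and 2 had no peak there. The fold is the authors' ratio over background for each peak, and it is read only within its own list. The SOX15 call therefore rests on 1 of 3 libraries, while the SOX2 call was made in both. The depth of the libraries is unknown, so a site with no peak may lie under the threshold of its list. Values were not tested, since an exact test of 3 against 2 libraries cannot give a p below 0.1.

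**Figure D1:**
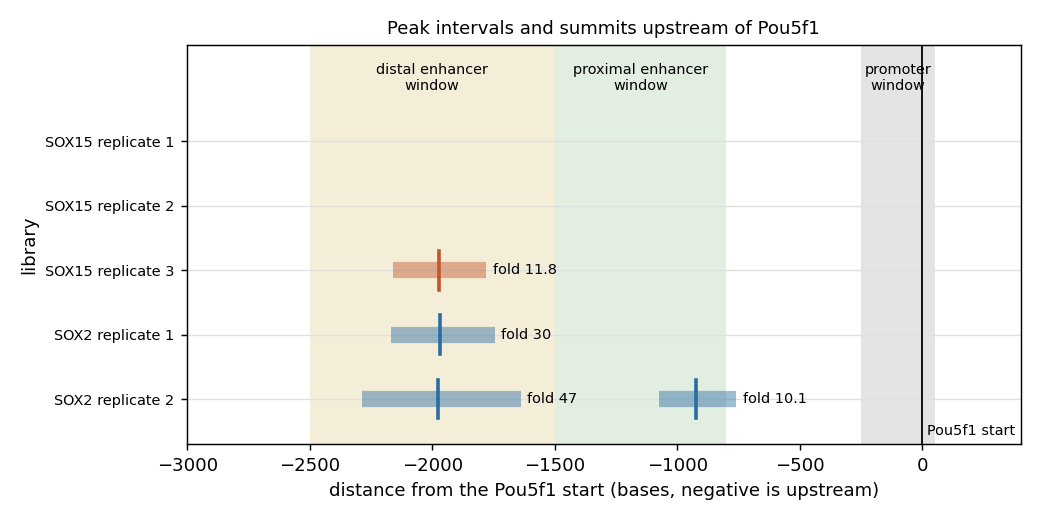
Peak intervals (bars) and summits (vertical marks) of each library against the distance from the Pou5f1 start in bases, with the distal, proximal and promoter windows shaded and the deposited fold beside each bar. The summits of SOX15 replicate 3 and SOX2 replicates 1 and 2 coincide in the distal window, and SOX2 replicate 2 alone has a peak in the proximal window.

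The 3 summits in the distal window coincided within 7 bases. That of SOX15 replicate 3 stood 1972 bases upstream of the start, at 35504060. Those of SOX2 replicates 1 and 2 stood 1968 and 1975 bases upstream, at 35504064 and 35504057, so the SOX15 summit lay between them. Over the 2369 regions called in both SOX2 libraries, the SOX2 summits differed by a median of 22 bases, and in 19.3% they were as close as at Pou5f1 or closer. Of the 115 such regions with a peak in SOX15 replicate 3 and in neither other SOX15 library, Pou5f1 was 1 of 2 where the SOX15 summit fell on the midpoint of the SOX2 summits, rounded down to a whole base, and the median distance was 28 bases. The intervals had widths of 384 bp in SOX15 replicate 3, and 426 and 652 bp in SOX2 replicates 1 and 2. The bases common to all 3 intervals ran from 2162 to 1779 upstream of the start (chromosome 17, 35503870 to 35504253), which is the whole SOX15 interval. Median widths over the SOX2 regions were 310 and 398 bp, and 18.1% and 5.23% of regions were wider than the Pou5f1 region in replicates 1 and 2.

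Within its list the distal SOX15 peak stood among the stronger ones, and the SOX2 peaks stood near the top. It ranked 56 of 437 in SOX15 replicate 3, above 86.7% of the list. In SOX2 replicates 1 and 2 it ranked 39 of 2676 and 7 of 4817, above 98.5% and 99.9% of the lists. On chromosome 17 it ranked 2 of 26 peaks in SOX15 replicate 3, 3 of 99 in SOX2 replicate 1 and 1 of 182 in SOX2 replicate 2. Among the 344 SOX15 replicate 3 peaks more than 1 kb from snRNA, snoRNA and clustered histone genes, the Pou5f1 peak ranked 15, above 95.1% of them. Among the 132 SOX2 regions away from those genes that held a SOX15 replicate 3 peak, its SOX15 fold ranked 10.

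**Figure D2:**
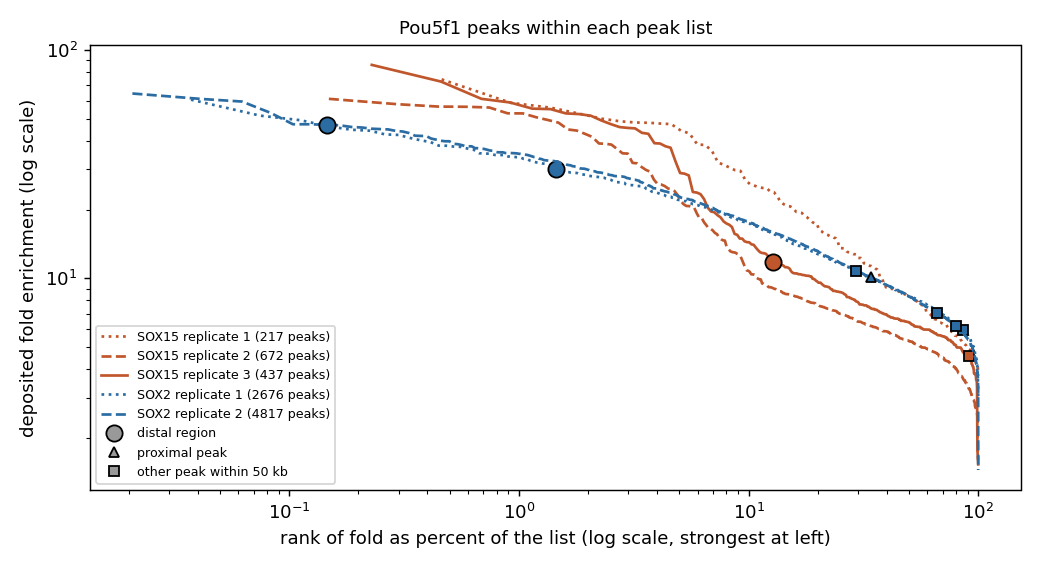
Deposited fold of every peak (log scale) against its rank as percent of its list (log scale, strongest at left), 1 line per library, with the peaks within 50 kb of Pou5f1 marked. The distal peak stands at rank 56 of 437 in SOX15 replicate 3, and at ranks 39 of 2676 and 7 of 4817 in SOX2 replicates 1 and 2, while the other peaks of the locus lie further right.

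The proximal enhancer window held 1 peak, in SOX2 replicate 2, and none of the SOX15 libraries or SOX2 replicate 1 had a peak there. Its fold was 10.1 and its −log10 q-value 26.1, which put it above 65.7% of its list by fold. The summit stood 926 bases upstream of the start, and the interval ran from 1075 to 759 bases upstream (chromosome 17, 35504957 to 35505273). The interval thus covered the near edge of the window, ran past it towards the gene, and did not reach the textbook centre. Between the distal and proximal summits of this library lay 1049 bases, and 561 bases without a peak separated the intervals. The distal fold was 4.67 times the proximal fold in that list. Only 3.11% of the peaks of SOX2 replicate 2 had another summit of the list within 1049 bases. Of the 660 peaks of SOX2 replicate 2 with a fold within a factor of 1.1 of the proximal peak's, 60.5% (Wilson 95% interval 56.7 to 64.1) overlapped a peak of SOX2 replicate 1. Such intervals cover counting error only, and peaks are not independent replicates.

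Gene annotation placed both upstream sites inside a noncoding gene. Gm32362, a lncRNA gene on the minus strand, covers 35500641 to 35505737, and 294 bases separate its start from that of Pou5f1, so that the genes point away from each other. The distal summits lay 1673 to 1680 bases inside Gm32362 from its start, and the proximal summit 631 bases inside it. The table does not give exons. No summit of any library fell in the body of Pou5f1, and no peak overlapped the promoter window of any gene within 50 kb, 250 bases before to 50 after a start. The internal Pou5f1 start at 35508807 had no peak either.

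Downstream, SOX15 replicate 3 had a weak peak in Tcf19, a gene for a PHD-finger protein. Tcf19 lies on the minus strand, and its end, not its start, is 1.95 kb past the end of Pou5f1. The summit stood 9.1 kb past the Pou5f1 start and 1694 bases inside Tcf19 from the start of that gene. Its fold was 4.55, above 8.92% of the list, with a −log10 q-value of 1.97. Only 17 of the 437 peaks of that list had a lower −log10 q-value. The lowest −log10 q-values in the lists of SOX15 replicates 1 and 2 were 2.76 and 2.03, both above 1.97. Whether this bears on the missing calls was not tested. No SOX2 library had a peak there. Of the 61 SOX15 replicate 3 peaks with a fold within a factor of 1.1, 5 overlapped a peak of SOX15 replicate 1 and 8 one of replicate 2, against 24 and 17 for SOX2 replicates 1 and 2. The shared start region of Tcf19 and Cchcr1, whose start sites lie on opposite strands, had no peak, nor had the body of Cchcr1.

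The remaining peaks were of SOX2, most of them in Cdsn, the gene of the skin adhesion protein corneodesmosin. A site 40.8 kb past the Pou5f1 start had a fold of 5.96 in SOX2 replicate 1 and 7.07 in SOX2 replicate 2, with summits 6 bases apart. These folds exceeded 14.4% and 34.1% of their lists. A nearer site in Cdsn, 37.5 kb past the Pou5f1 start and 420 bases inside Cdsn, was called in SOX2 replicate 2 alone, with a fold of 10.8. Upstream, SOX2 replicate 2 had a peak with a fold of 6.16 in the space between H2-Q10 and Gm32362, 15.5 kb before the Pou5f1 start. Neither H2-Q10, a gene of the MHC class I family, nor Psors1c2 held a summit. Of SOX2 replicate 2 peaks with folds near 10.8, 7.07 and 6.16, SOX2 replicate 1 overlapped 65.3%, 27.0% and 21.0%. The 9 peaks merged into 6 regions, of which the distal region was the only one called for both factors.

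**Figure D3:**
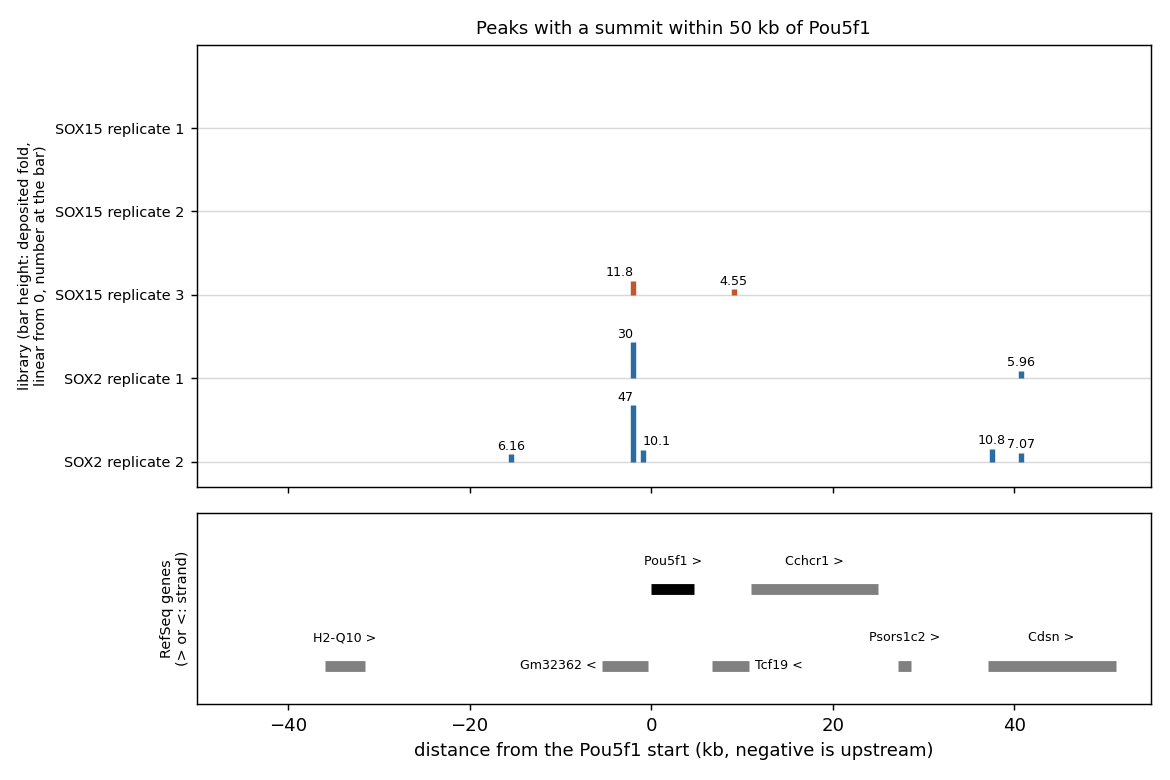
Summits within 50 kb of Pou5f1 by library (upper panel, bar height is the deposited fold from 0, with its value) and RefSeq genes (lower panel) against the distance from the Pou5f1 start in kb. SOX15 replicates 1 and 2 have no bar, SOX15 replicate 3 has bars at the distal site and in Tcf19, and the SOX2 libraries share the distal site and 1 site in Cdsn.

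No peak of any list lay close beyond the window. The outermost summits inside the window were 15.5 kb before and 36.0 kb past the gene body. Beyond it, the next SOX15 summits lay 358.6 to 358.9 kb upstream in the 3 libraries, and 322.1, 4332.8 and 1501.8 kb downstream in replicates 1, 2 and 3. The next SOX2 summits lay 553.6 kb upstream and 326.4 kb downstream in both libraries.

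Pou5f1 had summits in libraries in which most protein-coding genes had none. Any gene with a summit there exceeds most genes, so shares with at least as many are given. The Pou5f1 counts include the peaks in Tcf19 and Cdsn. Pou5f1 had 2 SOX15 replicate 3 summits within 50 kb, while 4.26% of all genes had any and 1.21% had at least 2. It had none in SOX15 replicates 1 and 2, in which 2.29% and 5.78% of genes had a summit. It had 2 summits in SOX2 replicate 1, while 15.5% of genes had any and 3.54% had at least 2. It had 5 in SOX2 replicate 2, while 24.9% of genes had any and 0.509% had at least 5. It had 2 SOX2 regions called in both libraries, while 14.1% of genes had any and 2.81% had at least 2. The call pattern of Pou5f1 within 50 kb was a SOX2 region of both libraries, a SOX15 replicate 3 summit, and no summit of SOX15 replicates 1 and 2. It was present at 1.04% of genes, counted whether or not the SOX15 summit lay on the SOX2 region. Neighbouring genes share peaks, so genes are not independent here.

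The distal site was among the strongest SOX2 regions, and few of them lay at such a distance upstream of a start. By mean percentile of fold in both SOX2 libraries it ranked 17 of 2369, and 2 of 83 on chromosome 17. A summit 1.5 to 2.5 kb upstream of any annotated start of a protein-coding gene, internal starts included, was found for 40 SOX2 regions (1.69%). The Pou5f1 region ranked 1 of these 40. SOX15 replicates 1, 2 and 3 had peaks on 6, 6 and 7 of the 40, and 6 of the 40 lay near snRNA, snoRNA or histone genes. Among the other 34, SOX15 replicates 1, 2 and 3 had peaks on 0, 0 and 1, and that 1 was the Pou5f1 region. Promoter windows held 22 SOX2 summits (0.929%) and proximal windows 37 (1.56%). The windows differ in width and their share of the genome was not taken, so these shares show no preference.

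The Pou5f1 distal region was 1 of many SOX2 regions that SOX15 replicate 3 called and the other SOX15 libraries did not. SOX15 replicate 3 had a peak on 185 of the 2369 regions (7.81%), against 72 for SOX15 replicate 1 and 71 for SOX15 replicate 2. A total of 7 regions, Pou5f1 included, had folds at least as high as Pou5f1 in both SOX2 libraries. Pou5f1 set this cutoff, and its SOX15 calls were already known. Of the other 6, SOX15 replicate 3 had a peak on 5 (Wilson 95% interval 43.6 to 97.0%). SOX15 replicates 1 and 2 had a peak on 0 of the 7, which allows a share of up to 42.9% by a rough rule (3 counts of 7). Pou5f1, known to lack these calls, is 1 of the 7, so this limit does not hold for the other 6. The SOX15 replicate 3 fold was 11.8 at Pou5f1. Of the other 6 regions, those nearest Abca4, Vwa3b, Akr1d1, Mgat4e and Ifitm2 had SOX15 replicate 3 folds of 6.17, 10.2, 12.8, 7.9 and 10.2, and that in Prune2 had none. These genes were named after their values were seen. Among these 7 regions only that near Akr1d1 had a higher SOX15 replicate 3 fold than Pou5f1. Ranked in SOX2 replicate 1 alone, 39 peaks were at least as strong as the Pou5f1 peak, itself counted. SOX15 replicates 1 and 2 then each had peaks on 7 of the 39 and SOX15 replicate 3 on 27, and 7 of the 39 lay near snRNA, snoRNA or histone genes.

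**Figure D4:**
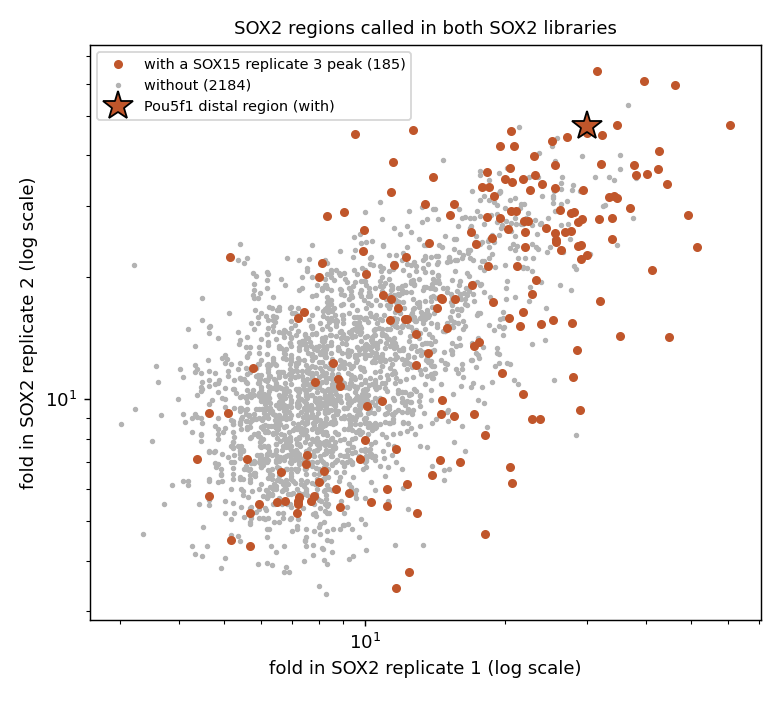
Fold of the 2369 SOX2 regions in SOX2 replicate 2 against SOX2 replicate 1 (log scales), coloured where SOX15 replicate 3 had a peak. The Pou5f1 distal region (star) sits at 30.0 and 47.0, near the upper right, where coloured points are frequent.

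SOX15 replicate 3 peaks about as strong as the Pou5f1 peak were often called elsewhere too. Of its 18 peaks with a fold within a factor of 1.1 of 11.8, Pou5f1 included, SOX15 replicates 1 and 2 had a peak on 11 and 10. SOX2 replicates 1 and 2 had a peak on 18 and 14 of them. Away from snRNA, snoRNA and histone genes 12 such peaks were left, with 5 and 5 called in SOX15 replicates 1 and 2, and 12 and 10 in SOX2 replicates 1 and 2. The Pou5f1 peak was thus 1 of those with both SOX2 calls and no other SOX15 call.

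The regions most like the Pou5f1 distal region were sought among the other 114 with the same SOX15 calls. Likeness was the distance between percentile ranks of fold in SOX15 replicate 3 and SOX2 replicates 1 and 2. The 10 nearest had distances of 1.73 to 11.5 percentile points, and the median over all 114 was 42.4. They were picked by these ranks, so short distances and like folds follow from the choice. Their nearest protein-coding genes, in order of likeness, were Akr1d1, Sptlc2, Klf9, Slain2, Ifitm2, Vwa3b, Kif28, Fryl, Ndufa8 and Efr3a. Folds over the 10 ranged from 9.15 to 12.8 in SOX15 replicate 3, from 18.4 to 46.2 in SOX2 replicate 1 and from 29.7 to 64.5 in SOX2 replicate 2. The closest, 115 kb from Akr1d1, a steroid reductase gene, had 12.8 in SOX15 replicate 3, and 39.6 and 61.0 in SOX2 replicates 1 and 2. The next, inside Sptlc2, a gene of sphingolipid synthesis, had 11.1 in SOX15 replicate 3, and 42.7 and 40.9 in the SOX2 libraries. None of the 10 lay within 1 kb of an snRNA, snoRNA or clustered histone gene, and 4 lay inside a gene. The shares over all 114 were not taken, so these counts show no trait particular to the 10.

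Other pluripotency genes shared the SOX2 calls with Pou5f1 more often than the SOX15 call. Among 8 classical genes with a composite OCT-SOX element (Sox2, Nanog, Fgf4, Utf1, Fbxo15, Lefty1, Zscan10 and Spp1), all 8 had a SOX2 region of both libraries within 50 kb, against 14.1% of all protein-coding genes. Only Nanog, a homeobox gene of the core network, had a SOX15 summit there, in replicate 3 alone, against 4.26% of all genes with a summit in that library. At Pou5f1 the SOX15 replicate 3 peak lay on a SOX2 region of both libraries, while near Nanog none of its 3 SOX15 summits did. The strongest SOX15 replicate 3 fold was 11.8 at Pou5f1, against 6.58 near Nanog. SOX2 folds were 30.0 and 47.0 at Pou5f1, against 6.76 and 10.4 near Nanog. Sox2 came closest to Pou5f1 in SOX2 signal, with folds of 33.3 and 35.3 in SOX2 replicates 1 and 2 and no SOX15 summit. Spp1, the osteopontin gene, followed with 23.7 and 27.0, and Fgf4, a growth factor gene, had 14.1 and 13.9.

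Of 12 genes of the naive and core network, 11 had a SOX2 region of both libraries within 50 kb, against 14.1% of all genes, and Nr5a2 was the exception. A SOX15 summit within 50 kb was found at 2, 5 and 3 of the 12 in SOX15 replicates 1, 2 and 3. The shares of all genes in these libraries were 2.29%, 5.78% and 4.26%. In any of the 3 libraries it was 5 of the 12, for which the share of all genes was not taken. The best SOX2 region ranked 17 of 2369 at Pou5f1, against 11 at Esrrb, an orphan nuclear receptor gene and the 1 gene of the 20 that ranked higher. Its SOX15 folds were 7.67, 6.27 and 6.47 in replicates 1, 2 and 3, and its SOX2 folds were 38.1 and 35.6. Tfcp2l1, a naive state factor gene, had the SOX15 replicate 3 fold nearest to that of Pou5f1, at 10.4, but not on a SOX2 region of both libraries. Zfp42, also known as Rex1, had 7.62. None of the 20 genes had a higher fold in SOX15 replicate 3, or more SOX2 replicate 2 summits, than Pou5f1, though Esrrb also had 5 such summits. Other counts went the other way. Zfp42 and Nanog had 5 and 3 SOX15 replicate 3 summits, against 2 at Pou5f1. In SOX2 replicate 1, Zfp42 had the most summits, 8, against 2 at Pou5f1. Lefty1, Klf5 and Esrrb each had 3 SOX2 regions of both libraries, against 2 at Pou5f1. The best mean SOX2 percentile was 99.2 at Pou5f1, against medians of 81.8 over the list of 8 genes and 82.7 over the 11 of 12 with such a region.

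**Figure D5:**
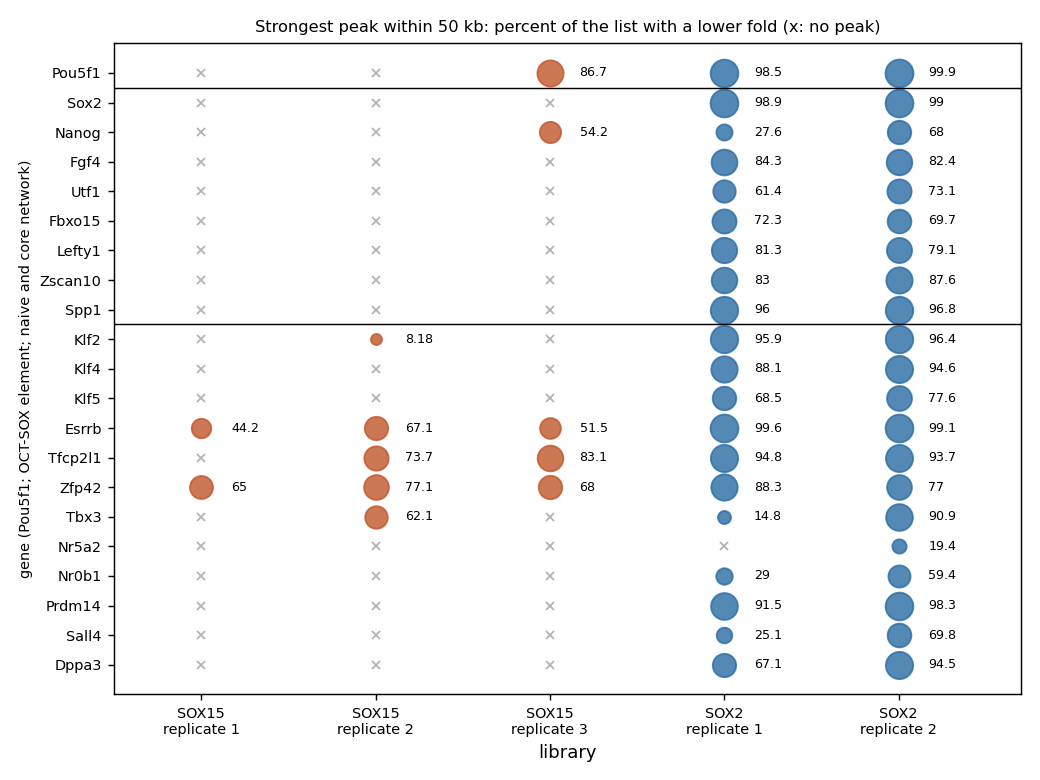
Strongest peak within 50 kb of Pou5f1 and 20 pluripotency genes by library, given as the percent of the list with a lower fold (circle area and number), with a cross where no peak was found. Pou5f1 has the highest value in SOX15 replicate 3 (86.7), while both SOX2 columns are filled for all genes but Nr5a2.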

How the data were processed

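Chromatin of mouse embryonic stem cells, crosslinked with 1% formaldehyde for 5 min per the labels, was profiled by ChIP-seq. The submitters' processing notes name Bowtie2, MACS2, deepTools and the build mm10, with no versions or roles. Peaks were deposited as 1 list per sample, so they were called per sample; the sources used here do not give the control. The deposited values per peak are a linear fold ratio over background, −log10 p- and q-values, a summit offset and a score, which equals 10 times the −log10 q-value rounded down. The lists held 217, 672 and 437 peaks for SOX15 replicates 1, 2 and 3, and 2676 and 4817 for SOX2 replicates 1 and 2. They give no read counts.

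Samples were grouped and numbered by their titles. Summits were placed against the RefSeq tables of GRCm38.p6, with strands from its promoter table, using 21627 protein-coding genes on 20 chromosomes. Peaks overlapping by at least 1 bp were merged. Ranks were by fold within a list. Shares over peaks or regions carry Wilson 95% intervals where given. Counting and merging were tested on simulated data. Named genes were Pou5f1, its neighbours within 50 kb, the lists of 8 and 12 genes and the 10 regions most like the distal region; others are said to be chosen after seeing values. Members and lists were chosen with earlier results of these data known. Alternatives changed the window, the threshold, the overlap, the ranking and the libraries used. Tools were Python 3.11.15 with pandas 2.3.3, numpy 2.4.6, matplotlib 3.10.9 and scipy 1.17.1.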

Additional observations from a re-analysis of the deposited data

How the results depend on the processing

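Of 66 alternative values for 20 results, 16 moved past the limits set and 50 did not. The limits were 1.5 times the value for counts and shares of genes, and the Wilson 95% interval for shares of peaks or regions, which is wide where few regions enter. The distal site was called in 3 libraries, and its summits fell in the distal window, under each alternative run on these results. At 1 common minimum −log10 q-value of 2.76, SOX15 replicate 3 had 1 peak near Pou5f1 in place of 2, since the Tcf19 peak lay below it. SOX2 replicates 1 and 2 had 1 and 2 peaks within 10 kb, and 1 and 3 within 25 kb; the window of 100 kb added none. Leaving out each library gave 3 to 6 merged regions, with 3 without SOX2 replicate 2. Away from snRNA, snoRNA and histone genes, the distal peak exceeded 95.1% of the SOX15 replicate 3 list, in place of 86.7%. The share of genes with a summit nearby followed the window by construction. Within 10 kb it was 1.08%, 2.81% and 1.99% for SOX15 replicates 1 to 3, and 7.62% and 12.2% for SOX2 replicates 1 and 2. Within 100 kb it was 3.5%, 9.16% and 6.65% for the SOX15 libraries and 24.2% for SOX2 replicate 1. Assigning summits to the nearer textbook enhancer centre, an alternative chosen after seeing the data, gave the same counts. The share of SOX2 regions as strong as Pou5f1, itself counted, that held a SOX15 peak was taken without SOX2 replicates 1 or 2 in turn. It was 0 to 17.9% for SOX15 replicates 1 and 2, and 69.2% to 85.7% for SOX15 replicate 3. No paired analysis was possible because no result here comes from a test over samples. Depth is unknown.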

Other observations

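Besides Pou5f1, Spp1 and Tfcp2l1 had a strong SOX2 region 1.5 to 2.5 kb upstream of an annotated start, chosen here after the values were seen. For Spp1 that start is not the outer edge of the gene. Its region ran from 104433748 to 104434473 on chromosome 5, and the gene body begins at 104435111, less than 1.5 kb away. Spp1 ranked 2 of the 40 such regions, with folds of 23.7 and 27.0 in SOX2 replicates 1 and 2, and Tfcp2l1 ranked 3, with 21.9 and 21.2. Neither of these regions held a SOX15 peak. The region upstream of Ptpn6, which ranked 4 and is close to an snRNA gene or a snoRNA gene (1 kb), had SOX15 folds of 13.6, 31.9 and 28.2 in replicates 1, 2 and 3, and SOX2 folds of 21.5 and 15.1.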
